A study of Sus scrofa with 6 samples.

Results

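The transcripts described here are those of the MCM replicative helicase and of the proteins that load it at replication origins, with the sliding clamp PCNA. Of 10 genes taken by name (MCM2, MCM3, MCM4, MCM5, MCM6, MCM7, MCM10, CDC6, CDT1 and PCNA), 9 were found among the 18007 genes of the deposited expression table. MCM5 was not analysed here. All 9 passed the filter on low values, and they lie on 9 different chromosomes.

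In late mitosis and G1, the origin recognition complex, CDC6 and CDT1 load rings made of MCM2 to MCM7 onto DNA, which is called origin licensing. In S phase the rings are switched on as helicases with the help of MCM10, CDC45 and the GINS complex, and PCNA holds the polymerases on the template. Transcription of most of these genes is known to rise toward S phase under E2F factors, and the proteins are scarce in cells that have left the cycle, so their transcripts are widely read as marks of proliferation.

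RNA-seq was applied to 3 lines of porcine embryonic fibroblasts (PEF5, PEF7 and PEF8) and to the 3 induced pluripotent lines (piPSC5, piPSC7 and piPSC8, labelled ips5, ips7 and ips8) made from them. All fibroblasts came from the ear tip at embryonic day 90, from a Longwhite boar (the labels' spelling; the methods write Large White) and a Meishan sow, so all 6 libraries share that cross. PEFs were used within a few passages and carried no transgene. For the piPSCs, the PEF line of the same number was infected with TetO-FUW-OSKM, a doxycycline-driven cassette of Oct4, Sox2, Klf4 and cMyc, and with FUW-M2rtTA, and colonies were grown in LF2i medium on mouse embryonic fibroblast feeders. The cassette is active only with doxycycline, and how many colonies a piPSC line came from is not given in the sources used here. The comparison asks how far the licensing genes moved on reprogramming.

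Each line gave 1 library, so the spread within a group is that between lines. Library totals ran from 11010629 fragments in piPSC8 to 17836510 in PEF5. The 12 fibroblast markers summed to between 6040 and 8660 FPKM (fragments scaled to transcript length and library total) in PEFs and to between 241 and 431 in piPSCs, where VIM and COL3A1 remained the highest. Of 12 pluripotency markers, 8 were in the table, and their sum was at most 0.202 FPKM in PEFs and between 2.96 and 9.16 in piPSCs, where SOX2 and LIN28B alone reached 1 FPKM in any library and NANOG, ESRRB, SALL4, ZFP42 and EPCAM stayed at or near 0. Summed keratinocyte markers were at most 9.18, chondrocyte 4.6, endothelial 2.59 and immune 3.03 FPKM in any library, and their part in the results was not tested. The study describes all 3 PEF lines as male, yet the Y-linked DDX3Y had 3439 fragments in PEF8 and 4207 in piPSC8 and 0 in the libraries of lines 5 and 7. The values below are therefore given for each line and without line 8 where that changes a call.

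Promoter sequence is shown first, since E2F sites in the promoters of MCM, CDC6 and CDT1 genes are the textbook link between these genes and S phase. Windows ran from 250 bases before to 50 bases after the gene start in the RefSeq annotation of Sscrofa11.1. They were searched on both strands for the E2F words TTTGGCGC, TTTCGCGC, TTTGCCGC and TTTCCCGC, for CCAAT, the word bound by NF-Y, and for TTTGAA, the core of the cell cycle homology region. An E2F word was found in 3 of 9 members (MCM3, MCM6 and CDT1) and in 656 of 19556 promoters (3.35%). CCAAT was found in 5 of 9 (MCM2, MCM3, MCM6, MCM10 and PCNA) and in 35.4% of promoters. TTTGAA was found in MCM6 alone and in 14.01% of promoters. The MCM6 and CDT1 sequences before the start follow, 5′ to 3′ on the gene's strand, with E2F words on either strand in capitals. They are shown because they hold the E2F words that lie before a start.
MCM6, chr15:15923388-15923637, plus strand: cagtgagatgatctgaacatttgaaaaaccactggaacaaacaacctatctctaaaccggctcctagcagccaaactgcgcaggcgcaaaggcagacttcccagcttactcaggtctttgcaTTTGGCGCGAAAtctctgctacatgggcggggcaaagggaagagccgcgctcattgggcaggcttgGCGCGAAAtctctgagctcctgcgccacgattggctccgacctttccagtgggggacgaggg
CDT1, chr6:897707-897956, minus strand: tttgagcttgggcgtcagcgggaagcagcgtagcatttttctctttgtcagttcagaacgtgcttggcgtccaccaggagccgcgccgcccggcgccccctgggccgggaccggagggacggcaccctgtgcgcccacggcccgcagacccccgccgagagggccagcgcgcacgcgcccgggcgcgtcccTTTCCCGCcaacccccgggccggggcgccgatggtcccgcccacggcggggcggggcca

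In MCM6, TTTGGCGC and the reverse complement of TTTCGCGC overlap in a run of 12 bases that starts 128 bases before the gene start, and TTTCGCGC recurs in reverse 62 bases before it. CDT1 has TTTCCCGC 59 bases before its start. The other E2F words lie just after the start of MCM3 and CDT1 and are given with the bases around them, the word in capitals as it reads on the gene's strand.
MCM3, chr7:46104376-46104397, minus strand: ttttgttgGCGGGAAAagtaga
CDT1, chr6:897684-897707, minus strand: aagccgcgGCGCGAAAacccgcgc

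MCM3 and MCM10 are shown for CCAAT, which in MCM3 stands on both strands and in MCM10 stands on the gene's own strand at 2 places. Capitals mark CCAAT or its reverse complement ATTGG.
MCM3, chr7:46104426-46104675, minus strand: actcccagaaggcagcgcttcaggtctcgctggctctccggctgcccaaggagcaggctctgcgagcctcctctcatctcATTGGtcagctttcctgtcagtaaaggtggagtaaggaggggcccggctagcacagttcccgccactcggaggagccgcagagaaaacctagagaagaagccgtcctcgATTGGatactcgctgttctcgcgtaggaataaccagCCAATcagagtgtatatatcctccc
MCM10, chr10:48523922-48524171, minus strand: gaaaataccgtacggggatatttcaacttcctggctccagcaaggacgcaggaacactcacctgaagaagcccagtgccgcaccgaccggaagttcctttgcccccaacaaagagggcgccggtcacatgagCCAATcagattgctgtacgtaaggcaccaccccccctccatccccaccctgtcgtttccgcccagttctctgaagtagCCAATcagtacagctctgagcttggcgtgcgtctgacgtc

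Where a gene starts decides what such a window holds. The RefSeq and deposited starts differ by 5 bases in MCM3, 14 in MCM7, 28 in MCM10 and 79 in CDT1, but by 343 in MCM4, 545 in MCM2, 2276 in CDC6, 6596 in MCM6 and 42692 in PCNA, so the MCM6 window above lies inside the deposited MCM6 gene. Around the deposited starts, an E2F word was found in MCM3, CDT1 and CDC6, against 580 of 16995 promoters (3.41%), CCAAT in 3 members against 34.1%, and TTTGAA in 0 against 14.5%. A word is a match of letters, and its use in these cells was not measured.

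Levels are in FPKM and were compared between groups with limma on log2(FPKM + 1) over 12428 genes with a mean of at least 0.5 FPKM, with Benjamini-Hochberg adjustment and a threshold of 0.05. With these settings 7 of 9 members were higher in piPSCs, 0 were lower and 2 were not called. Over all tested genes 3763 were higher (30.3%) and 2667 were lower (21.5%). The median log2 fold change was 2.27 for the members and 0.21 for all tested genes, and every member had a fitted change of at least 1. The members that rose were MCM2, MCM3, MCM4, MCM6, MCM7, MCM10 and PCNA. CDC6 and CDT1, which bring the ring to the origin, missed the threshold in this fit, which does not pair the lines. With a replicate block for the line, all 9 members were called, against 28.0% of all tested genes. The count was 9 without PEF5 or line 5, when 25.5% and 14.2% of all tested genes were higher. It was 3 without PEF8, piPSC5 or line 7 (33.3% of the members, against 25.2%, 22.0% and 20.9% of all tested genes). Without line 8 it was 2 (22.2%), close to the 23.6% of all tested genes. With libraries scaled to a median ratio it stayed at 7, while 2826 of all tested genes were then higher and 3257 lower. In bulk libraries, a larger share of cells in S phase and more transcript in each such cell cannot be told apart. The FPKM values per gene used here do not separate mouse feeder fragments from piPSC fragments.

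**Figure D1:**
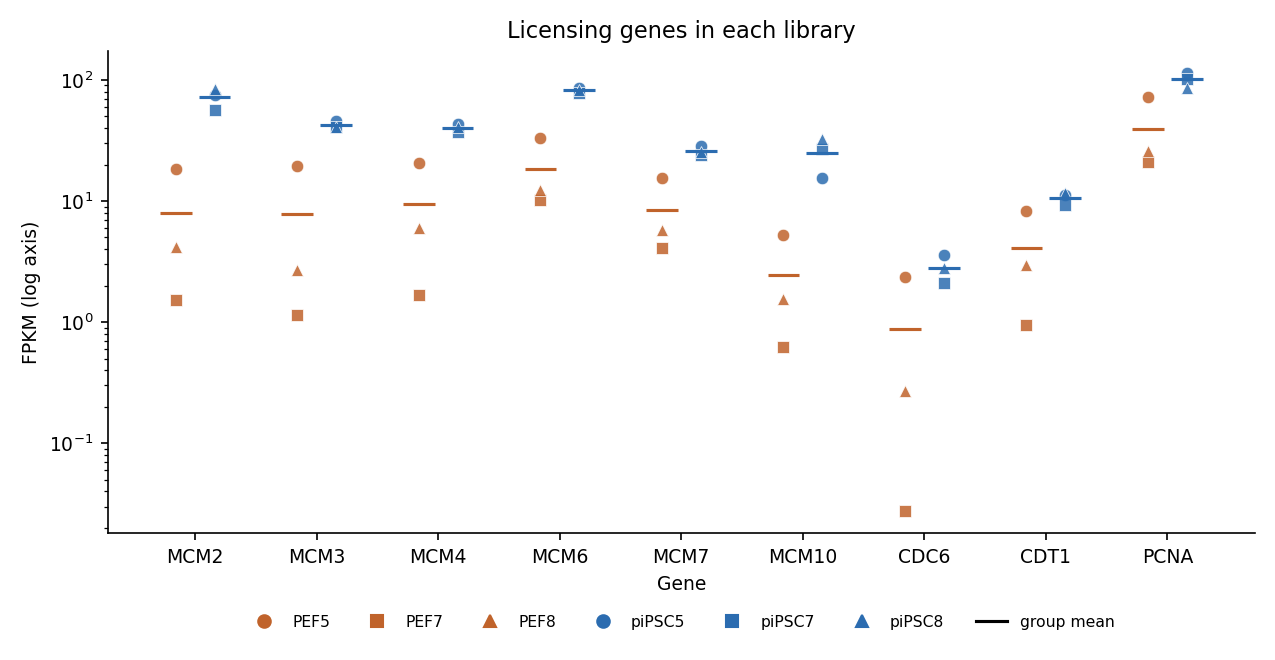
FPKM on a log axis for each of the 9 genes in each library, with orange for PEFs, blue for piPSCs, the shape for the line and a bar for the group mean. PEF5 is the highest and PEF7 the lowest PEF point for all 9 genes, and with values as deposited the piPSC points lie above the PEF points except for CDC6.

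MCM2 is the subunit that forms the gate of the ring with MCM5 and carries histones H3 and H4 through the fork. The gene (ENSSSCG00000011624, chr13:72629882-72650725, minus strand) had 18.4, 1.51 and 4.18 FPKM in PEF5, PEF7 and PEF8, against 75.7, 56.5 and 84.3 in piPSC5, piPSC7 and piPSC8. The groups did not overlap, and PEF5 stood well above the other PEFs. The means were 8.02 ± 9.07 and 72.2 ± 14.2 FPKM (SD, n = 3 lines each). MCM2 had the largest fitted change of the 9, 3.52 on the log2 scale with an SE of 0.70 (limma adjusted p = 0.00668). It was called whichever single library was left out, and without both libraries of line 8 limma gave an adjusted p of 0.0554.

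MCM3 contacts MCM5 in the ring and is the subunit through which the loaders first take hold of it. MCM3 (ENSSSCG00000025488, chr7:46084662-46104430, minus strand) had 19.6, 1.15 and 2.70 FPKM in PEF5, PEF7 and PEF8, and 45.6, 40.8 and 40.5 in piPSC5, piPSC7 and piPSC8. The piPSC lines lay close together, while the highest PEF was 17.1 times the lowest. The log2 fold change was 2.98 with an SE of 0.78 (limma adjusted p = 0.0183). The call was lost without PEF8 (limma adjusted p = 0.0611), without piPSC5 (0.0576) and without line 7 or line 8 (0.102 each).

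MCM4, MCM6 and MCM7 make up the core of the ring that unwinds DNA alone in the test tube. MCM4 (ENSSSCG00000006273, chr4:79672783-79687307, minus strand) had 20.6, 1.68 and 6.01 FPKM in PEF5, PEF7 and PEF8 and 43.2, 37.1 and 40.9 in the piPSCs of the same order. MCM4 rose by 2.48 on the log2 scale with an SE of 0.69 (limma adjusted p = 0.0230). It fell short of the threshold without PEF8, piPSC5, piPSC7, piPSC8, line 7 or line 8, with limma adjusted p from 0.0547 without piPSC7 to 0.111 without line 8. The start of PRKDC overlaps MCM4 on the opposite strand, and counting is not stated to use strand.

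MCM6 (ENSSSCG00000035564, chr15:15917042-15979389, plus strand) had the highest level of the ring subunits in all 3 PEFs, at 32.99, 10.2 and 12.4 FPKM in PEF5, PEF7 and PEF8. It had 86.4, 77.4 and 82.0 FPKM in piPSC5, piPSC7 and piPSC8, so every piPSC was above every PEF. The log2 fold change was 2.27 with an SE of 0.41 (limma adjusted p = 0.00461), and it passed under all 19 alternatives tried.

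MCM7 (ENSSSCG00000032180, chr3:8001458-8014061, minus strand) changed least among the ring subunits. It had 15.5, 4.06 and 5.77 FPKM in PEF5, PEF7 and PEF8 and 28.6, 23.7 and 25.5 in piPSC5, piPSC7 and piPSC8, again with no overlap. Its log2 fold change was 1.70 with an SE of 0.42 (limma adjusted p = 0.0158). The call was lost without PEF8 (limma adjusted p = 0.0525), piPSC5 (0.0545), line 7 (0.0835) or line 8 (0.0913). TAF6, with between 499 and 1187 fragments per library, overlaps MCM7 on the same strand, and AP4M1 on the other, so reads of the shared stretch could be split between them.

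The 5 subunits measured summed to 107, 18.6 and 31.1 FPKM in PEF5, PEF7 and PEF8, and to 279, 236 and 273 FPKM in piPSC5, piPSC7 and piPSC8. The lowest piPSC sum was thus above the highest PEF sum. On the log2 scale the groups differed by 2.73, a ratio of 6.63 between geometric means (exact permutation test over libraries, two-sided, p = 0.1, the smallest that 3 lines against 3 can give).

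The makeup of that sum also differed between libraries. MCM2 made up 17.2%, 8.12% and 13.5% of the sum in PEF5, PEF7 and PEF8 and 27.1%, 24.0% and 30.9% in the piPSCs, with no overlap. MCM7 made up 14.5%, 21.9% and 18.6% in PEFs and 10.2%, 10.1% and 9.32% in piPSCs, again with no overlap. Both differences had an exact permutation p of 0.1, and 0.25 after adjustment over the 5 subunits. MCM6 went from 41.8% ± 12.1 in PEFs to 31.3% ± 1.45 in piPSCs (SD, n = 3; exact permutation p = 0.3), while the MCM3 share was 18.3%, 6.20% and 8.68% in PEFs and 16.3%, 17.3% and 14.8% in piPSCs (exact permutation p = 0.4). The MCM4 share went from 15.9% ± 5.92 to 15.4% ± 0.387 (exact permutation p = 1.0).

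In PEF7, MCM6 had 8.84 times the FPKM of MCM3, the widest gap between subunits in any library, and the gap was 4.60 in PEF8 and 2.13 in PEF5. In the piPSCs it lay between 3.02 and 3.31, with MCM7 lowest in each. Shares rest on the gene lengths behind the FPKM values, which were 7630 bases for MCM7 and 5782 for MCM4, against 2955 and 3226 in their longest RefSeq mRNA. With RefSeq lengths MCM3 was the lowest subunit in all 6 libraries and the gap in piPSCs was 2.38 to 2.55, so the order of the subunits depends on the length used. The MCM2 and MCM7 shares stayed separate between groups, at most 13.2% in PEFs and at least 19.6% in piPSCs for MCM2, and at least 25.2% and at most 18.9% for MCM7.

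**Figure D2:**
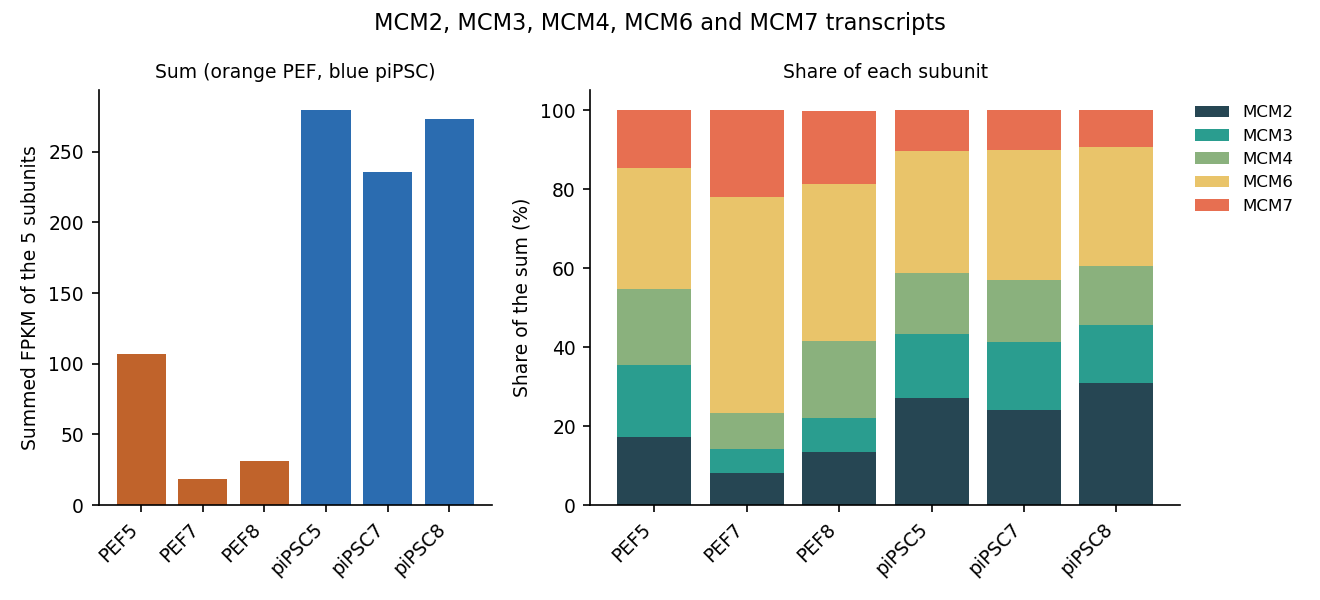
Left, the summed FPKM of the 5 ring subunits in each library, with bars from 0; right, the share of each subunit in that sum in percent. The sum runs from 18.6 in PEF7 to 279 in piPSC5, and the MCM2 share is larger and the MCM7 share smaller in all piPSCs than in any PEF.

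MCM10 is not part of the ring. It joins the active helicase and is needed for origins to fire. The gene (ENSSSCG00000035059, chr10:48480712-48523893, minus strand) had 5.21, 0.624 and 1.55 FPKM in PEF5, PEF7 and PEF8, against 15.4, 26.9 and 32.4 in piPSC5, piPSC7 and piPSC8. The groups did not overlap. Among the piPSCs its highest value was 2.11 times its lowest, the widest such ratio of the 9 members, and piPSC5 was lowest. The log2 fold change was 3.07 with an SE of 0.52 (limma adjusted p = 0.00386), and the call held under all 19 alternatives.

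CDC6, an ATPase that joins the origin recognition complex to load the ring, had the lowest FPKM of the 9 in every library. The gene (ENSSSCG00000017471, chr12:22097390-22116165, minus strand) had 2.34, 0.0274 and 0.272 FPKM in PEF5, PEF7 and PEF8, and 3.57, 2.09 and 2.81 in piPSC5, piPSC7 and piPSC8. PEF5 was above piPSC7, so CDC6 was the one member whose groups overlapped. In PEF7 it rested on 3 fragments, against 163 in piPSC7, a ratio of 76.4 in FPKM with an exact 95% interval of 25.7 to 374 that covers counting error only. The fitted change in CDC6 was 1.21 on the log2(FPKM + 1) scale with an SE of 0.47 (limma adjusted p = 0.0677), where the added 1 exceeds the FPKM of PEF7 and PEF8. It was 2.55 with a pseudocount of 0.1 (limma adjusted p = 0.0805) and 3.02 with voom on fragments (limma adjusted p = 0.0695), still not called. Without PEF5 and on the first scale it was 1.72 (limma adjusted p = 0.00849), and a replicate block for the line let CDC6 pass (limma adjusted p = 0.0410).

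CDT1 brings the ring to the origin and is destroyed once S phase begins. CDT1 (ENSSSCG00000002651, chr6:893381-897627, minus strand) had 8.30, 0.953 and 2.94 FPKM in PEF5, PEF7 and PEF8 and 11.2, 9.27 and 11.6 in piPSC5, piPSC7 and piPSC8. Every piPSC was above every PEF as deposited, by 1.12 times at the closest. The log2 fold change was 1.49 with an SE of 0.53 (limma adjusted p = 0.0545). Without PEF5 it was 2.07 (limma adjusted p = 0.00845), and the replicate block let it pass as well (limma adjusted p = 0.0445).

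PCNA, the clamp that tethers polymerases and through which CDT1 is marked for destruction, was the most abundant member in all 6 libraries. PCNA (ENSSSCG00000030642, chr17:14136886-14185276, minus strand) had 71.8, 21.1 and 25.7 FPKM in PEF5, PEF7 and PEF8 and 115, 102 and 85.6 in piPSC5, piPSC7 and piPSC8. The lowest piPSC was 1.19 times the highest PEF, and PCNA rose by 1.53 on the log2 scale with an SE of 0.44 (limma adjusted p = 0.0265). The call was lost with libraries scaled to equal sums (limma adjusted p = 0.0645) and without PEF7, PEF8, piPSC5, piPSC7, line 7 or line 8 (from 0.0661 to 0.151). CDS2 overlaps PCNA on the opposite strand.

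Against the mean of the 5 ring subunits, on the log2(FPKM + 1) scale, CDT1 was lower by 1.10 in piPSCs than in PEFs and PCNA by 1.06, each with an exact permutation p of 0.1 and 0.133 after adjustment over 4 genes, and MCM10 was higher by 0.48 (exact permutation p = 0.3). This test cannot go below 0.1 with 3 lines against 3. CDT1 and PCNA kept their direction with a pseudocount of 0.1 (-0.98 and -1.26) and with none (-0.96 and -1.29). For CDC6 the difference was -1.38 with a pseudocount of 1, -0.27 with 0.1 and 0.56 with none, so its direction against the ring rests on the pseudocount.

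By mean FPKM, which is per length, the order in piPSCs was PCNA, MCM6, MCM2, MCM3, MCM4, MCM7, MCM10, CDT1 and CDC6. Neighbours overlapped in range for PCNA and MCM6, MCM6 and MCM2, MCM3 and MCM4, and MCM7 and MCM10. The ranges of the lines did not overlap for MCM2 and MCM3, MCM4 and MCM7, MCM10 and CDT1, and CDT1 and CDC6. With RefSeq lengths the order was PCNA, MCM6, MCM2, MCM4, MCM7, MCM3, MCM10, CDT1 and CDC6. Only MCM2 and MCM4, and MCM4 and MCM7, then overlapped in range. The places of MCM3, MCM4 and MCM7, and which neighbours overlap, thus depend on the length used. In PEFs, all neighbours in the order overlapped.

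The 9 members moved together among the fibroblast lines before any reprogramming. All 9 were highest in PEF5 and lowest in PEF7 among PEFs. The share of all tested genes with that order was not computed. The same order in other genes named below therefore has no background share beside it. PEF5 exceeded the mean of PEF7 and PEF8 by a median of 1.61 on the log2 scale over the members, against 0.048 over all tested genes. The ratio of the highest to the lowest PEF ran from 3.24 for MCM6 to 85.6 for CDC6. These genes are not independent of one another, and 1 library per line cannot tell a property of the line from the state of its culture on the day.

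The SD of log2(FPKM + 1) over PEFs had a median of 0.984 for the members, against 0.26 for all tested genes, and each member's SD was above that of at least 93.45% of tested genes. Over piPSCs the median SD was 0.158, against 0.27 for all genes. All 9 members had a larger SD in PEFs than in piPSCs, and the share of all tested genes with that direction was not computed. MCM10, with 0.535 in piPSCs, was the most variable there, and MCM6, with 0.078, the least.

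Set against its own PEF line, each piPSC line had higher values for all 9 members, 27 of 27 comparisons of line and member. This count stayed at 27 with libraries scaled to a median ratio or to equal sums. The members vary together, so the 27 are not independent of one another. The share of all tested genes higher in all 3 lines was not computed. It is at least the 37.3% for which every piPSC library was above every PEF library. The median log2 ratio of (FPKM + 1) over the members was 1.04, 2.81 and 2.58 in lines 5, 7 and 8, and over all tested genes it was 0.21, 0.24 and 0.08. On the same scale MCM2 had the largest value in each line, 1.99, 4.52 and 4.04. As plain ratios of FPKM, line 5 ran from 1.34 for CDT1 to 4.12 for MCM2, line 7 from 4.84 for PCNA to 76.4 for CDC6, on 3 fragments in PEF7, and line 8 from 3.34 for PCNA to 20.9 for MCM10. CDC6 was the lowest in lines 7 and 8 on the log2(FPKM + 1) scale but not as a plain ratio. Line 5 had the smallest ratio for every member, with the highest PEF library. These are 1 library against 1 and have no replicate check.

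**Figure D3:**
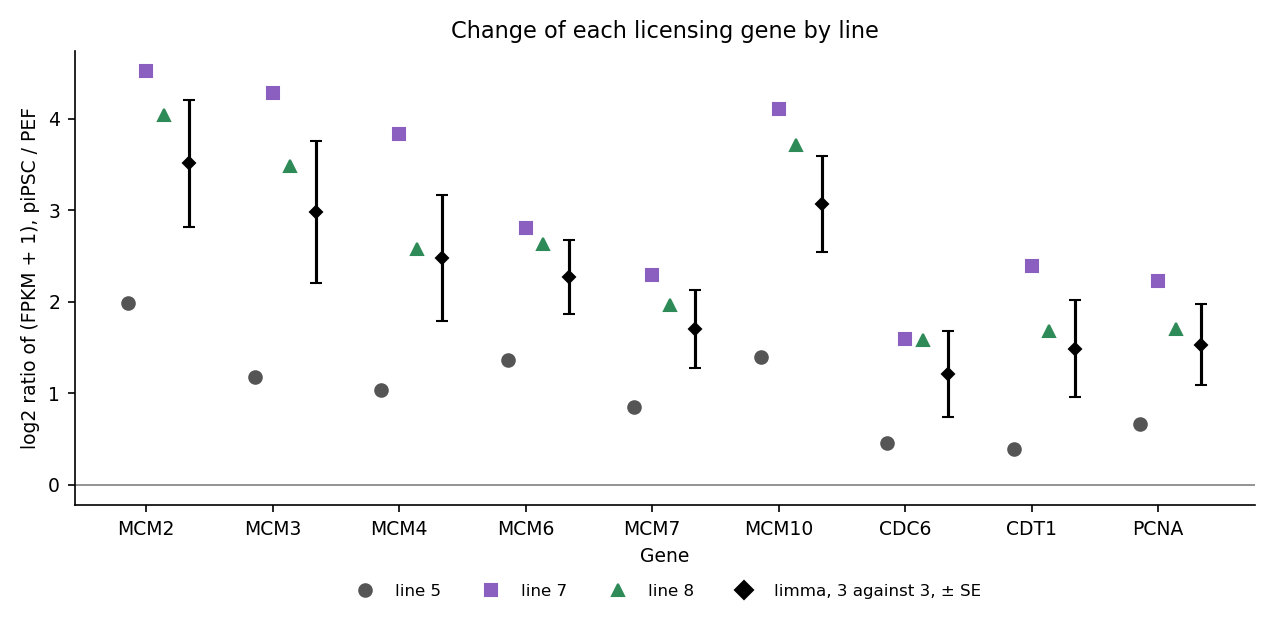
Log2 ratio of (FPKM + 1), piPSC over the PEF line it was made from, for each gene and line, with the limma change over 3 lines against 3 as a diamond and bars of 1 SE. All 27 points lie above 0, and line 5 is the lowest point for every gene.

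Every piPSC library was above every PEF library for 8 of 9 members, against 4632 of 12428 tested genes (37.3%). With libraries scaled to a median ratio CDT1 overlapped as well as CDC6, leaving 7 members against 30.2% of tested genes. With equal sums PCNA overlapped too, leaving 6 against 28.2%.

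Likeness among profiles was measured as the root mean square difference of log2(FPKM + 1), each gene centred on its own mean over the 6 libraries. The nearest members were MCM7 and PCNA at 0.144, and the farthest MCM2 and CDC6 at 1.22. MCM2 was nearest to MCM3 (0.357), and CDC6 nearest to PCNA (0.231). With a pseudocount of 0.1, MCM7 and PCNA were still nearest (0.187), but MCM2 and PCNA were farthest (1.27) and CDC6 was nearest to MCM4 (0.338). Among genes outside the lists used here, HMMR, a hyaluronan receptor that also acts at the spindle, was closest to the mean profile of the members at 0.141, with 4.04, 0.449 and 0.904 FPKM in PEF5, PEF7 and PEF8 and 9.86, 9.02 and 9.84 in the piPSCs. It was followed by CENPN, a kinetochore protein (0.157), ASF1B, a histone chaperone (0.161), CHAF1A, the large subunit of the chromatin assembly factor that binds PCNA (0.180), and NUF2, of the outer kinetochore (0.181). The members themselves lay between 0.188 (MCM6) and 0.676 (MCM2) from their mean profile, farther than these genes. The median over all tested genes was 1.27, and 761 tested genes, members included, lay within the distance of the farthest member. These values describe 6 libraries that share their lines.

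The other genes of the pathway were taken in lists and counted the same way. In the leave-one-out counts below, the share of all tested genes called higher ran from 14.2% without line 5 to 28.9% without piPSC8. Of 10 origin recognition genes and licensing partners, 8 rose, 0 fell and 2 were not called, with a median log2 fold change of 0.98. ORC1, a subunit of the origin recognition complex whose level is known to follow the cycle, had 8.46, 0.459 and 1.85 FPKM in PEF5, PEF7 and PEF8 and 26.8, 21.5 and 32.8 in the piPSCs and rose by 3.02 (limma adjusted p = 0.00886). MCM8, a paralogue with a role in repair, rose by 1.37 (limma adjusted p = 0.00825). GMNN, the geminin that blocks CDT1, rose by 0.84 (limma adjusted p = 0.0243), with a PEF mean of 3.41 ± 1.15 FPKM and a piPSC mean of 6.76 ± 0.808 (SD, n = 3). ORC4, with -0.14, and MCM9, with 0.55, did not pass. The count was 5 under median ratio scaling and voom and 4 under equal sums. Under these settings 22.7%, 22.6% and 21.1% of all tested genes were higher, in that order. The count was 5 without PEF7 or piPSC5, 4 without line 5, 3 without line 7 and 2 without line 8. The last, 2 of 10, stood beside 23.6% of all tested genes.

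All 16 genes of helicase activation rose, with a median log2 fold change of 1.57. With the replicate block 14 did, without GINS3 and TIPIN, and with equal sums 12, beside 28.0% and 21.1% of all tested genes. CDC45, which completes the active helicase, had means of 1.54 ± 1.62 in PEFs and 9.16 ± 2.38 FPKM in piPSCs (SD, n = 3), and rose by 2.17 (limma adjusted p = 0.00899). WDHD1, which links the helicase to the first polymerase, had the largest change at 2.27. Of the GINS subunits, GINS1 rose by 2.18 and GINS4 by 1.63, and GINS2 by 0.83 and GINS3 by 0.79 (limma adjusted p = 0.0428 for GINS3, and 0.0520 with the replicate block). The kinase CDC7 rose by 1.03 and its partner DBF4 by 0.94. The count was 9 without PEF7, 10 without PEF8, piPSC5 or line 5, 7 without line 7 and 5 without line 8. The last, 5 of 16, stood beside 23.6% of all tested genes.

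Of 26 genes tested for polymerases, the clamp loader and Okazaki fragment processing, 23 rose, 1 fell and 2 were not called, with a median of 1.54. POLE, the catalytic subunit of the leading strand polymerase, rose by 2.74 and POLA1, that of the priming polymerase, by 2.68. POLE4, a small histone-fold subunit, fell by 0.54 on the log2 scale (limma adjusted p = 0.0214). Its means were 30.2 ± 1.03 in PEFs and 20.6 ± 2.48 FPKM in piPSCs (SD, n = 3). The count of genes that rose was 13 without line 7 or line 8.

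The E2F, RB and G1/S list was mixed, with 12 of 26 genes higher, 5 lower and 9 not called, and a median of 0.96. E2F7, a repressor E2F, rose by 4.17 (limma adjusted p = 0.000441), and E2F5, which works with the pocket proteins, rose by 3.46 (limma adjusted p = 0.000115). E2F1, a main activator of the licensing genes, had 19.4, 3.62 and 5.66 FPKM in PEF5, PEF7 and PEF8 and 19.1, 10.8 and 19.9 in the piPSCs, so its groups overlapped and it did not pass (0.99, limma adjusted p = 0.176). Its PEF values had the same order of lines as the members, highest in PEF5 and lowest in PEF7. E2F8, with 1.28, and RB1, with -0.52, did not pass (limma adjusted p = 0.0772 and 0.170). MYC and CDKN1C, an inhibitor of cyclin-dependent kinases, had the largest falls, with log2 fold changes of -3.98 and -3.11 (limma adjusted p = 0.00634 and 0.00388). The piPSCs also carried the cMyc cassette, whose transcript was not measured separately here, so the MYC row may not give total MYC transcript. The count of higher genes was 7 of 26 without line 8, beside 23.6% of all tested genes.

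Of 8 genes that turn over CDT1 or control licensing by proteolysis, 5 rose, 0 fell and 3 were not called. DTL, which brings CDT1 bound by PCNA to its ubiquitin ligase, had 6.72, 0.135 and 0.508 FPKM in PEF5, PEF7 and PEF8 and 25.3, 18.1 and 36.2 in the piPSCs and rose by 3.49 (limma adjusted p = 0.00785). SKP2, another ubiquitin ligase subunit for CDT1, had 6.93, 4.32 and 4.67 FPKM in PEFs and 43.9, 39.7 and 49.3 in piPSCs and rose by 2.86 (limma adjusted p = 0.000266). Both had the line order of the members among PEFs, where the highest value was 49.7 times the lowest for DTL and 1.602 times for SKP2. The count was 3 of 8 without line 5 and 2 of 8 without line 8, beside 14.2% and 23.6% of all tested genes.

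Of 12 G2 and mitosis markers, 11 were found and 10 were tested. All 10 tested rose, with a median log2 fold change of 3.03, beside 2.27 for the licensing genes. CDC20 had at most 1 fragment in any library, piPSCs included, and was not tested. PLK1, the mitotic kinase, rose by 3.60 (limma adjusted p = 0.00129), CCNB1, the mitotic cyclin, by 3.54 (limma adjusted p = 0.00108) and MKI67, the Ki-67 antigen, by 2.97 (limma adjusted p = 0.00328). MKI67 had 3.83, 0.328 and 0.618 FPKM in PEF5, PEF7 and PEF8 and 18.9, 13.99 and 15.9 in the piPSCs, so the mitotic markers were also highest in PEF5. By line the medians of this list were 1.63 in line 5, 3.62 in line 7 and 3.27 in line 8. The count was 6 without line 7 or line 8.

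Of the list genes named above, POLA1, E2F7, E2F5, SKP2, PLK1, CCNB1 and MKI67 were called under all 19 alternatives. ORC1, CDC45, GINS4, POLE and DTL were lost under 1 alternative, the one without line 8, and MCM8 and CDKN1C under 1, the one without line 5. WDHD1 and CDC7 were called under 17 of 19, MYC under 16, GINS1 under 13, DBF4 and POLE4 under 12, GMNN and GINS2 under 10 and GINS3 under 5. E2F1 and E2F8 each passed under 1 alternative, the one without PEF5 (limma adjusted p = 0.0156 and 0.0163).

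**Figure D4:**
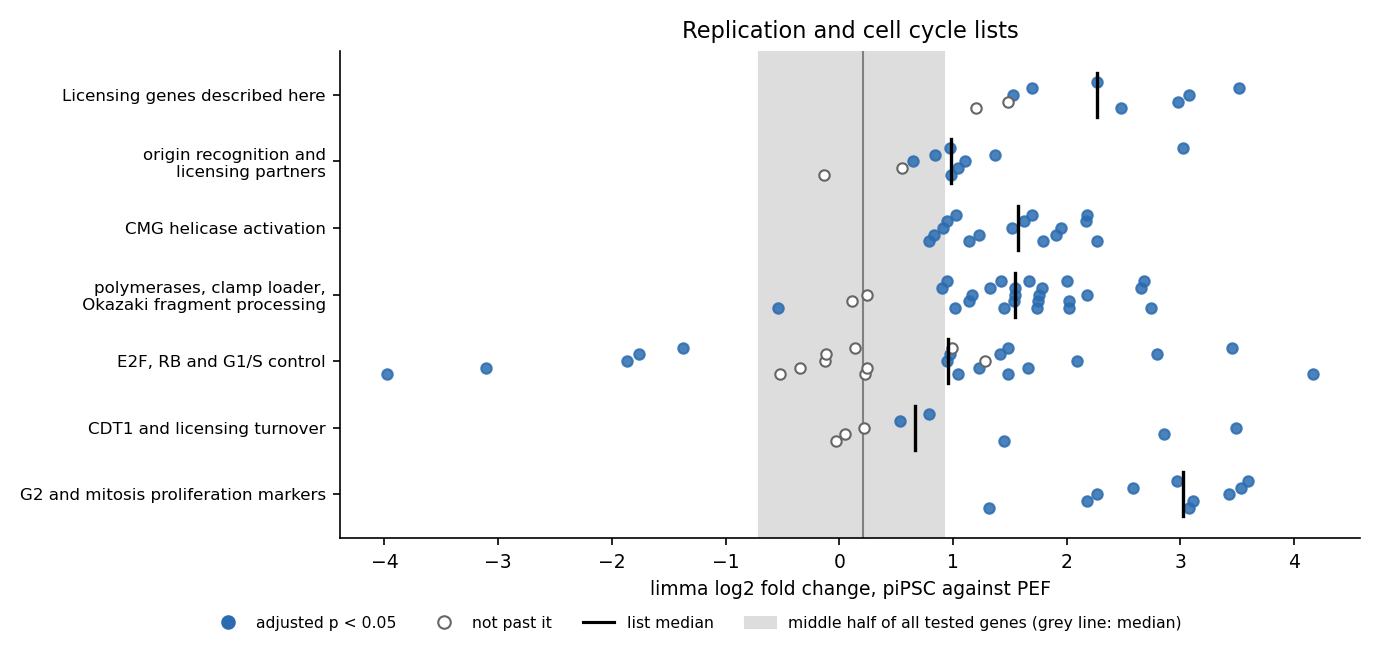
Limma log2 fold change, piPSC against PEF, of each gene of the licensing set and of the 6 pathway lists, filled where the adjusted p passed 0.05 and with a black bar at the list median. The grey band spans from the lower to the upper quartile of all tested genes (-0.71 to 0.92), and the medians run from 0.66 for CDT1 turnover to 3.03 for the G2 and mitosis markers.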

How the data were processed

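The authors deposited FPKM values per gene. Libraries were poly-A selected and read from both ends over 150 bp. The submitters' processing notes name HISAT2 2.1.0, Bowtie2 2.2.3, HTSeq 0.6.0 and Sscrofa11.1. Strand use, the annotation release and how reads on overlapping genes were handled are not given in the sources used here. FPKM values were whole multiples of 1 fragment (tolerance 0.002) for 18007 of 18007 genes, which gave the fragments. Groups were compared over 3 lines against 3, two-sided and without pairing, the form of test in the study's general statistics (its own expression comparison set each piPSC line against its PEF line), with limma 3.58.1 in R 4.3.3 (trend, no robust fitting) on log2(FPKM + 1). Other values used Python 3.11.15, numpy 2.4.6, pandas 2.3.3, scipy 1.17.1 and pysam 0.24.0. Scripts were tested on simulated data.

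Libraries are paired by line, because a piPSC line and the PEF line of its number share their source. Deviations correlated at between 0.08 and 0.0946 for equal numbers and at between -0.1214 and 0.0553 for others. p-values measure the spread between lines.

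Members and lists were chosen with earlier results of these data known. Named genes are all members, the 2 largest called changes in each direction per list, direct partners of the members (GMNN, ORC1, CDC45, GINS1 to GINS4, CDC7, DBF4, SKP2, DTL, E2F1, E2F8, RB1, MKI67 and CCNB1) and the 5 nearest profiles. ORC4 and MCM9 were named as the genes of their list that were not called. Alternatives were the replicate block, pseudocount, filter, scaling, trend, robust fitting, voom and each library or line left out. RefSeq lengths, deposited starts and other pseudocounts for relative levels and likeness were added after the values were seen.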

Additional observations from a re-analysis of the deposited data

How the results depend on the processing

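All 9 members stayed higher in piPSCs under every alternative run. Of 485 values recomputed, 424 kept their direction and side of the threshold or, for counts, stayed within 1.5 times, 22 lost a call, 6 gained one, 27 moved and 6 reversed. Of 9 members, 7 were called with a pseudocount of 0.1, with a minimum mean FPKM of 1 or none, quantile normalization, median ratio scaling, robust fitting, no trend or voom, and 6 under equal sums. Over these settings, the share of all tested genes called higher ran from 19.8% with no minimum to 32.5% with a minimum of 1. With the replicate block, which follows the pairing by line, 9 were called, against 28.0% of all tested genes. CDC6 and CDT1 were gained. Scaling shifted the median log2 fold change of all genes from 0.21 to -0.01 (median ratio) or -0.06 (equal sums), and 3763 higher and 2667 lower genes became 2826 and 3257, or 2627 and 3383. Voom gave 2813 and 3182.

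Leaving out a library or a line gave 2 (without line 8) to 9 members (without PEF5 or line 5) and 1768 (without line 5) to 3588 higher genes overall. It gave 2 to 7 origin recognition genes and partners, 5 to 16 helicase activation genes, 13 to 23 polymerase genes, 7 to 14 E2F and G1/S genes, 2 to 5 turnover genes and 6 to 10 mitotic markers. The first of these lists gave 5 under median ratio scaling and voom and 4 under equal sums. The line 7 median of the members was 4.10 with a pseudocount of 0.1. The MCM4 share, which differed by -0.465 points, ran from -4.06 to 1.48 with a library or line left out and was 1.21 with RefSeq lengths. CDC6 against the ring was 0.558 with no pseudocount. The causes were not tested. Depth limits mainly CDC6, with 3 fragments in PEF7. The planned edgeR fit was not run, since the deposited unit is FPKM, and protein sequences were not used here.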

Other observations

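Further G1 regulators of the E2F, RB and G1/S list are named here after their values were seen. CCNE1, CCNE2, CDK2, RBL1 and E2F2 were called higher in piPSCs (log2 fold changes of 1.23, 1.42, 0.95, 2.09 and 1.05). The calls of these genes held under 18, 7, 7, 18 and 10 of 19 alternatives. They were highest in PEF5 and lowest in PEF7 among PEFs, as the licensing genes were. E2F7 and TFDP1, also called higher, had that order too. E2F3, E2F4 and CDK4, called higher as well, were lowest in PEF8, and E2F5 was lowest in PEF5. CCND1, a D-type cyclin, had 110, 34.3 and 49.5 FPKM in PEF5, PEF7 and PEF8 and 28.1, 14.2 and 24.9 in piPSC5, piPSC7 and piPSC8, with a limma log2 fold change of -1.37 and the same order of PEF lines. CCND3 went from 83.9 ± 6.998 to 24.8 ± 7.31 FPKM (SD, n = 3), with a log2 fold change of -1.76. CDKN1A, an inhibitor of cyclin-dependent kinases induced by p53, was highest in PEF8 at 1206 FPKM, had 417 and 436 in PEF5 and PEF7, and was between 106 and 207 in piPSCs, with a log2 fold change of -1.87. CDKN2A, which the table lists as P14ARF, was higher in piPSCs, at 7.44, 39.0 and 12.0 FPKM in PEF5, PEF7 and PEF8 and 112, 155 and 81.8 in piPSC5, piPSC7 and piPSC8, with a log2 fold change of 2.80. All 4 passed limma's threshold, and of 19 alternatives they did so under 19 (CCND3), 18 (CDKN2A), 17 (CDKN1A) and 10 (CCND1). Among PEFs, CDKN2A was highest in PEF7 and lowest in PEF5, the reverse of the order of the licensing genes. CDKN1A and CDKN1B, of the same list, were slightly higher in PEF7 than in PEF5 and highest in PEF8. CDKN1C was highest in PEF7 but lowest in PEF8, so its order was not the reverse. CDKN1C had 10.9, 33.6 and 6.84 FPKM in PEF5, PEF7 and PEF8.

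Whether fragments of the cMyc cassette entered the MYC row, which had 1.42, 1.05 and 0.267 FPKM in piPSC5, piPSC7 and piPSC8, was not tested.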
